A study of Mus musculus with 11 samples.

Results

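Advillin and its relatives in the gelsolin family of actin-regulating proteins were followed across Brn3a genotypes in the trigeminal ganglion, the sensory ganglion of the face. Members were all probe sets annotated to Avil, Vil1, Gsn, Capg, Scin or Flii. All 6 genes had a probe set, 11 probe sets in all, of 21414 probe sets with 1 gene symbol for 13675 named genes in the series. Every one of the 11 was on the Affymetrix U74Av2 array and 0 of the 6 genes had a probe set on the U74Bv2 array. Ganglia were dissected from mouse embryos at embryonic day 13.5 that were Brn3a knockout, Brn3a heterozygote or wild type, and 10 to 12 ganglia of 1 genotype were pooled for an array. Brn3a is a POU-homeodomain transcription factor of sensory neurons, encoded by Pou4f1. U74Av2 was hybridised with 2 arrays per genotype, and U74Bv2 with 2 knockout, 2 heterozygote and 1 wild-type array. The labels name no promoter, Cre driver or cell type that limits the knockout, and strain, sex and the allele's construction are not given. Pools hide the spread between animals, so the p-values speak only of the spread from array to array, which may be technical.

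Proteins of the gelsolin family are made of repeated gelsolin-like domains that bind actin, and most of them sever actin filaments or cap the fast-growing end when calcium rises. Villin and advillin carry an extra actin-binding headpiece at the carboxyl end, with which villin bundles filaments. Advillin stands out for its tissue: it is found mainly in sensory neurons of the dorsal root and trigeminal ganglia, where it lies in axons and growth cones, and its gene is widely used to drive Cre recombinase in these neurons. Villin is a protein of the microvilli of gut and kidney epithelium, and gelsolin, CapG, scinderin and Flightless-I are expressed more widely.

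The start of Avil is shown because Avil is the member called between genotypes, and because Brn3a recognises AT-rich DNA. The sequence, from RefSeq on build GRCm38.p6, covers 250 bases before and 50 after the first base of the transcript, at chr10:127000459-127000758 on the plus strand. Capitals mark the match to ATNANTNAT, a 9-letter pattern of the AT-rich kind that POU-homeodomain factors of this class bind, which reads the same on both strands.
Avil: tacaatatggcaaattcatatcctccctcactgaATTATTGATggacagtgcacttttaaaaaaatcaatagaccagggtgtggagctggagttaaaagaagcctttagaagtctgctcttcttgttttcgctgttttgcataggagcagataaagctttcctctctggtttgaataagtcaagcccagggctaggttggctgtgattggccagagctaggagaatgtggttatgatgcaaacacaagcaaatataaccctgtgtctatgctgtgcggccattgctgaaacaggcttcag
The match began at position -216 from the transcript start and overlapped the 1 match in this window to TAAT, the homeodomain core searched on both strands. Among 32841 windows of 300 bases in the same table, 5.92% held ATNANTNAT and 58.0% held TAAT. None of the 7 windows of the other 5 genes held ATNANTNAT, and no window of the 6 genes held the octamer ATGCAAAT, found in 1.74% of all windows. TAAT was not particular to Avil, with 1 match in a Gsn window, 1 in the Capg window and 2 in the Scin window. The other Gsn windows and those of Vil1 and Flii held none. The Avil window had a GC content of 43.0%, against 52.0 to 70.0% in the relatives' windows and a median of 52.7% over all windows. These are matches of letters in 1 short window, and binding was not measured here.

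Advillin signal was largely lost in knockout ganglia. Avil (probe set 102249_at) had signals of 242 and 195 in knockout arrays, 1407 and 1862 in heterozygote arrays, and 1455 and 2022 in wild-type arrays. Both knockout arrays lay far below the other 4, and heterozygote and wild-type arrays overlapped. The mean signal was 219 ± 33.1 in knockouts, 1635 ± 321 in heterozygotes and 1739 ± 401 in wild types (SD, n = 2 each), so that the knockout mean was 7.47-fold below the heterozygote and 7.95-fold below the wild-type mean on the linear scale. Detection calls were not used here, so the low knockout signal cannot be called absent.

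**Figure D1:**
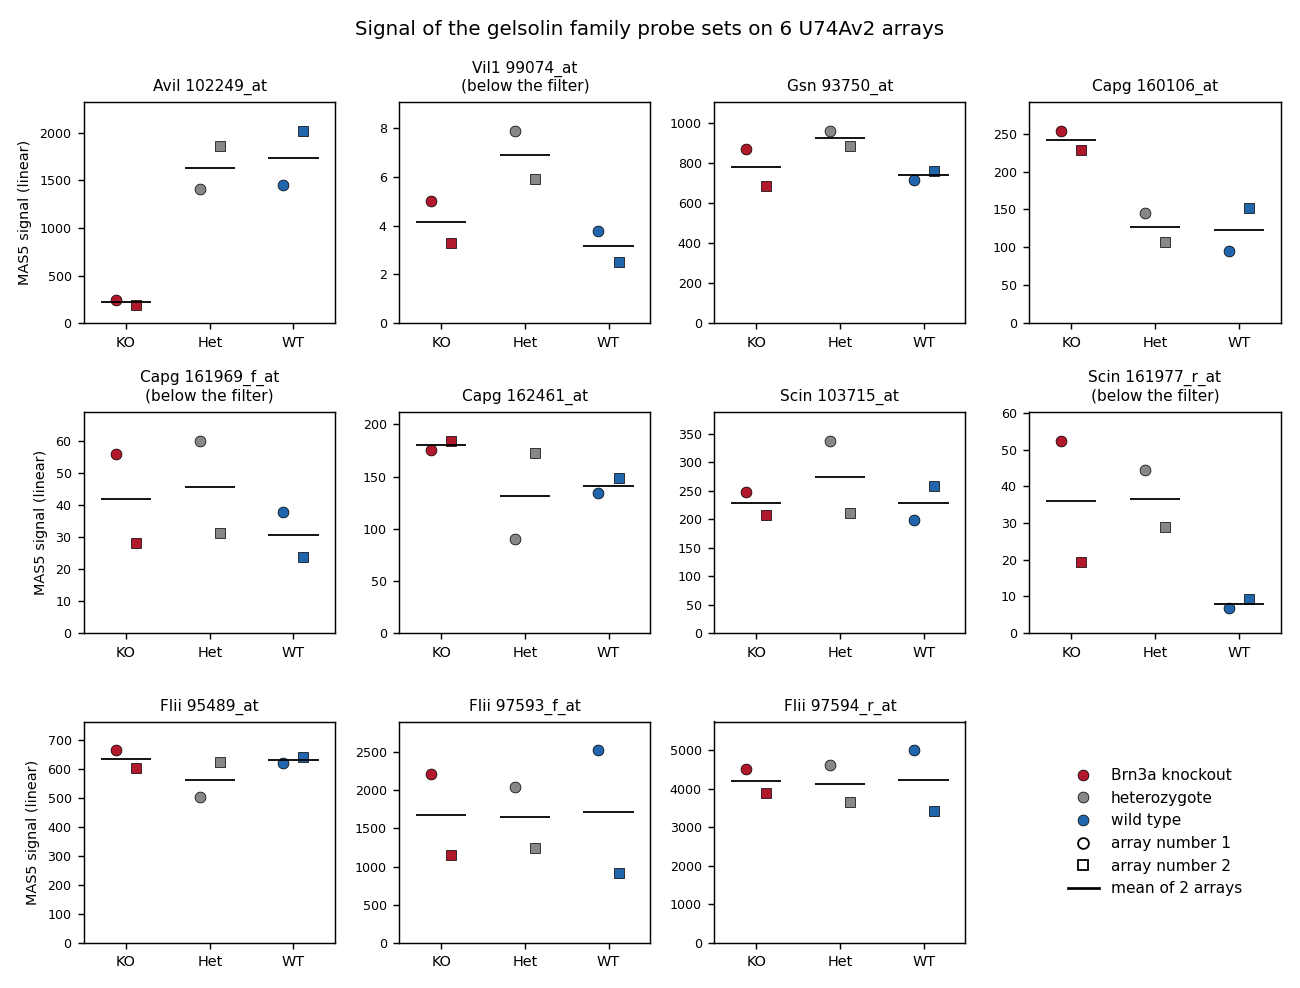
MAS5 signal (linear scale, each panel with its own axis from 0) of the 11 probe sets of the 6 genes on the U74Av2 arrays of Brn3a knockout (KO), heterozygote (Het) and wild-type (WT) ganglia. Circles and squares are arrays numbered 1 and 2 and bars are means of 2 arrays. Avil is at 242 and 195 in knockouts and at 1407 or more in every other array, and the Flii probe sets of the _f_at and _r_at types are higher on all number 1 arrays than on any number 2 array.

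On the log2(signal + pseudocount) scale, with a pseudocount of 50.03, Avil fell by 2.72 ± 0.26 (SE) in knockout against wild type (limma adjusted p = 0.0125, 95% interval -3.34 to -2.10). This is 6.59-fold on a scale that understates changes of dim signals. Against heterozygote it fell by 2.64 ± 0.26 (limma adjusted p = 0.0188). In both comparisons it had the third most negative difference among 7453 tested probe sets. The knockout arrays are the same in both, so the comparisons are not independent.

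The difference between knockout and wild type was -2.36 between arrays numbered 1 and -3.08 between arrays numbered 2. Without knockout array 1, knockout array 2, wild-type array 1 or wild-type array 2 the difference stayed between -2.95 and -2.49, and the adjusted p was 0.119, 0.129, 0.0573 and 0.103, so the call against wild type was lost each time. The call against heterozygote was likewise lost without either knockout array (adjusted p = 0.157 and 0.162) or either heterozygote array (0.118 and 0.220).

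A single Brn3a allele left advillin at a level that could not be told from wild type. Heterozygote minus wild type was -0.08 ± 0.26 (SE), with a 95% interval of -0.70 to 0.54 and a limma adjusted p of 1.00. In the order of levels, knockout was lowest and heterozygote and wild type were neighbours that did not differ beyond their spread.

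The targeted gene was lower in the knockout arrays on the other array type, and the heterozygote arrays lay on both sides of the wild-type array. Pou4f1 (111104_at on U74Bv2) had signals of 550 and 904 in knockout arrays, 2196 and 3570 in heterozygote arrays and 3313 in the wild-type array. The position of the probe set relative to the deletion is not known here. All arrays of a type had nearly the same 2% trimmed mean signal, between 500.26 and 500.29 on U74Av2. In bulk ganglia, fewer cells of a type and less RNA per cell cannot be told apart.

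The summed signal of 15 sensory neuron markers on U74Av2, 1 probe set per gene, was 74759 and 79869 in knockouts, 83160 to 101624 in heterozygotes and 75035 to 76721 in wild types. The knockout sums overlapped those of wild type and lay below both heterozygote sums. The neuronal tubulin Tubb3 alone made up 26861 and 22418 of the sum in knockouts, 35465 and 21562 in heterozygotes and 21165 and 17183 in wild types.

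Of the 15 markers 12 passed the filter and 0 were called in either knockout comparison. Differences ran from -1.07 to 0.36 against wild type (median -0.02, 6 of 12 negative, 3 at an unadjusted limma p under 0.05) and from -1.17 to 0.05 against heterozygote (median -0.21, 11 of 12 negative, 2 at that level). Over all tested probe sets, 381 of 7453 were at that level against wild type and 391 against heterozygote. For 4 of the 12 markers, named here after their values were seen, both knockout arrays lay below the 4 other arrays, beside 7.66% of all tested probe sets. The sodium channel Scn9a had signals of 140 and 178 in knockouts, 426 and 412 in heterozygotes and 260 and 566 in wild types. The intermediate filament protein peripherin (Prph) had 4015 and 6027 in knockouts, 9048 and 10444 in heterozygotes and 7326 and 11130 in wild types. The RNA-binding protein Elavl4 had 858 and 801 in knockouts, 1108 and 1259 in heterozygotes and 1185 and 1531 in wild types. These were the 3 markers at an unadjusted p under 0.05 against wild type, all with negative differences, at -1.07 ± 0.35, -0.87 ± 0.29 and -0.67 ± 0.22 (SE; limma adjusted p = 0.700, 0.744 and 0.721). The neurofilament gene Nefl was the fourth, at -0.53 ± 0.30. The LIM-homeodomain factor Isl1 overlapped between genotypes, at 2852 and 2296 in knockouts, 3504 and 2650 in heterozygotes and 2787 and 3000 in wild types. Other markers, also named after their values were seen, went the other way against wild type. The differences were positive for Tubb3 (0.36), Snap25 (0.28), Nefm (0.26) and Uchl1 (0.12), and none was called. Against heterozygote they were -0.17, 0.05, -0.02 and -0.12 in the same order, and the arrays overlapped. On U74Bv2, 5 of 6 tested markers had negative differences from the lone wild-type array and 1, Ntrk2, was positive at 0.90. Thus some sensory neuron markers had lower values in the knockout arrays, by less than Avil and without a call. Others did not against wild type, though 11 of 12 on U74Av2 were negative against heterozygote. The part of these markers in the Avil difference was not tested.

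Gelsolin signals overlapped between knockout and wild type. Gsn (93750_at), the calcium-activated severing and capping protein, had signals of 871 and 686 in knockout arrays, 960 and 883 in heterozygote arrays and 715 and 759 in wild-type arrays. Both heterozygote arrays were the highest. The difference was 0.07 ± 0.22 (SE) between knockout and wild type, with a 95% interval of -0.45 to 0.58, and -0.24 ± 0.22 between knockout and heterozygote. The first interval did not overlap that of Avil.

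CapG, a relative that caps filament ends without severing them, was not called between genotypes by either of its tested probe sets. The brightest (160106_at) had signals of 254 and 229 in knockout arrays, 146 and 107 in heterozygote arrays and 95 and 152 in wild-type arrays, with both knockout arrays above all others. Its difference was 0.77 ± 0.30 (SE) against wild type (limma adjusted p = 0.905, unadjusted p = 0.0363) and 0.73 ± 0.30 against heterozygote (limma adjusted p = 0.909).

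A further Capg probe set (162461_at) had signals of 175 and 185 in knockout arrays, 90.6 and 172 in heterozygote arrays and 134 and 149 in wild-type arrays. Here too the knockout arrays were above all others, but by less, with a difference of 0.27 ± 0.31 (SE) against wild type. The third Capg probe set (161969_f_at), of a family type that can match related transcripts, lay below the filter, at 55.9 and 28.2 in knockouts, 60.2 and 31.3 in heterozygotes and 37.7 and 23.9 in wild types, and the genotypes overlapped. Capg is abundant in macrophages, whose 10 markers summed to 1688 to 2093 in knockouts, 1840 to 2250 in heterozygotes and 1875 to 2239 in wild types. These sums overlapped between genotypes, and 6 of the 10 markers passed the filter. The part of macrophages in the Capg difference was not tested. The summed signal of 9 connective tissue markers was 12165 to 13579 in knockouts, 10605 to 10989 in heterozygotes and 9546 to 10816 in wild types, and that of 8 Schwann and satellite glia markers 20525 to 23778, 18669 to 20406 and 16659 to 17951 in the same order of genotypes. Fabp7 alone made up 16258 and 12753 of the glia sum in knockouts, 14450 and 11880 in heterozygotes and 9736 and 11460 in wild types. Of the 7 tested glia markers 4 had positive and 3 negative differences against wild type. Both the connective tissue and the glia sums were highest in the knockout arrays, as the brightest Capg probe set was, and their part in the Capg difference was not tested.

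Scinderin, a severing protein known from secretory cells, overlapped between genotypes. Scin (103715_at) had signals of 248 and 207 in knockout arrays, 338 and 210 in heterozygote arrays and 198 and 257 in wild-type arrays. The difference between knockout and wild type was 0.00 ± 0.29 (SE), with a 95% interval of -0.69 to 0.69. A probe set of relaxed design (161977_r_at) lay below the filter, at 52.5 and 19.5 in knockouts, 44.5 and 28.8 in heterozygotes and 6.70 and 9.40 in wild types. Its low wild-type signals did not give a call when the filter was dropped (limma adjusted p = 0.935 for knockout against wild type).

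Flightless-I, which joins leucine-rich repeats to gelsolin-like domains and is also a coactivator of nuclear receptors, overlapped between genotypes by its probe set of standard design. Flii (95489_at) had signals of 663 and 604 in knockout arrays, 502 and 623 in heterozygote arrays and 620 and 642 in wild-type arrays. The difference between knockout and wild type was 0.00 ± 0.22 (SE), with a 95% interval of -0.51 to 0.52.

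Both other Flii probe sets were higher on every number 1 array than on any number 2 array, and their genotypes overlapped. The family-type 97593_f_at had signals of 2213, 2046 and 2522 on the number 1 arrays of knockout, heterozygote and wild type, and 1145, 1239 and 917 on the number 2 arrays. The relaxed 97594_r_at was at 4513, 4611 and 5001 on number 1 arrays and 3883, 3656 and 3437 on number 2 arrays. Their differences between knockout and wild type were 0.06 ± 0.52 and 0.01 ± 0.26 (SE). No label says what the array numbers stand for.

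The villin probe set gave signals close to 0. Vil1 (99074_at) was at 5 and 3.3 in knockout arrays, 7.9 and 5.9 in heterozygote arrays and 3.8 and 2.5 in wild-type arrays, below the filter and among the lowest 0.757% of probe sets on the array, so no fold change is given. Of 8 epithelial markers on the array 1 passed the filter, against 12 of 15 sensory neuron markers. The filter left out all probe sets at or below the 40th percentile. Why the Vil1 signal was low was not tested.

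In all, 8 of the 11 probe sets of 5 of the 6 genes passed the filter on dim signals and were tested. In knockout against wild type 1 of the 8, Avil, was called at an adjusted p under 0.05, beside 19 of 7453 probe sets (0.255%) on the whole array. In knockout against heterozygote it was again Avil, beside 14 probe sets (0.188%). None was called in heterozygote against wild type, nor was any probe set on the array (0%, with 52 at an unadjusted p under 0.05). The 7 tested probe sets of the relatives had differences between knockout and wild type of 0.00 to 0.77 with a median of 0.06, against a median of 0.02 over all tested probe sets. Between knockout and heterozygote these were -0.24 to 0.73, with a median of 0.03 against 0.02.

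**Figure D2:**
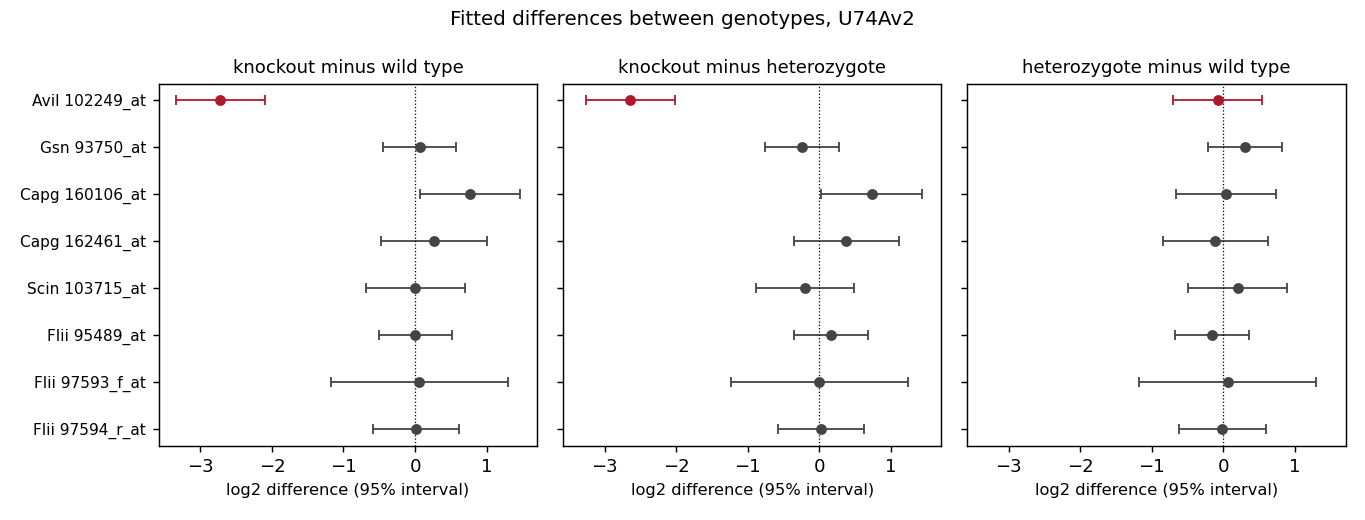
Fitted log2 differences between genotypes (points) with 95% intervals from limma (bars) for the 8 tested probe sets, each row 1 probe set. Avil lies at -2.72 and -2.64 in both knockout comparisons with intervals that stay below -2, and the other intervals are near or across 0.

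The gap between advillin and its relatives was tested within arrays, as the log2 value of Avil minus that of the relative. For each of the 7 tested probe sets of the relatives, both knockout arrays had a smaller value than the 4 other arrays. The knockout arrays were already far below the other 4 for Avil alone, so this order follows largely from the fall of Avil. How many of all probe sets would give it when paired with Avil is not given here. The 7 share the values of Avil and are not independent, and the 3 probe sets below the filter were not read here. In knockout against wild type the change of Avil minus that of Gsn was -2.79 ± 0.34 (combined SE), with a 95% interval of -3.59 to -1.98. The same difference was -3.49 ± 0.40 for Capg 160106_at, -2.72 ± 0.39 for Scin 103715_at and -2.73 ± 0.34 for Flii 95489_at. The combined error treats probe sets as independent. In the exact permutation test of knockout against the 4 other arrays, two-sided, each of the 7 gave p = 0.0667, which is also the adjusted value and the smallest that 15 splits allow. With 2 arrays against 2 the smallest p is 0.333, and each of the 7 gave it. So the design cannot reach 0.05 in this test, and these p-values are no support apart from the fall of Avil itself.

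No other actin regulator tested had a difference of that size. A list of 80 genes for monomer binding, filament nucleation, capping, severing and bundling had 60 genes on U74Av2, of which 54 were tested. None of the 54 was called by limma in knockout against wild type (3 at an unadjusted p under 0.05) or against heterozygote (1 at that level), beside the 0.255% and 0.188% of all probe sets. At that unadjusted level were 381 and 391 of all 7453 tested probe sets, in the same order of comparisons. Their median difference was 0.02 between knockout and wild type, with a range from -1.18 to 0.68, and 0.04 between knockout and heterozygote, with a range from -0.90 to 0.82. The brightest were the actin monomer-binding thymosins Tmsb10 (0.57 ± 0.40, SE) and Tmsb4x (0.45 ± 0.26) and cytoplasmic actin Actg1 (0.60 ± 0.33), all against wild type and none called. Against heterozygote the differences were -0.02 ± 0.40, 0.12 ± 0.26 and -0.01 ± 0.33 in the same order, and those of heterozygote minus wild type were 0.60 ± 0.40, 0.33 ± 0.26 and 0.60 ± 0.33, so the knockout arrays did not stand apart from the heterozygote arrays for these genes.

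On U74Bv2, 20 of the 80 genes had a probe set and 15 were tested, with a median of 0.00 between knockout and wild type. None was called against wild type (4 at an unadjusted p under 0.05), beside 1.40% of 7446 probe sets, and 1 of 15, Ablim1, was called lower against heterozygote, beside 1.20% of all probe sets called lower. Over all tested probe sets on U74Bv2, 834 of 7446 were at an unadjusted limma p under 0.05 against wild type. Against heterozygote 720 were, among them 6 of the 15. Ablim1 encodes a LIM-domain protein that binds actin. Its signals (110339_at) were 510 and 307 in knockout arrays, 1168 and 990 in heterozygote arrays and 1152 in the wild-type array. It fell by 1.33 ± 0.24 (SE) against heterozygote (limma adjusted p = 0.0294), and its difference from wild type was -1.43 ± 0.29 (limma adjusted p = 0.0636). The call against heterozygote was lost without the filter (limma adjusted p = 0.104) and without an intensity trend (0.0862). The brightest members on U74Bv2 were the pointed-end capping tropomodulin Tmod2 (0.73 ± 0.21 against wild type, limma adjusted p = 0.208), Enah, which promotes filament growth (-0.04 ± 0.20), and the spectrin-binding adducin Add3 (0.10 ± 0.24).

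**Figure D3:**
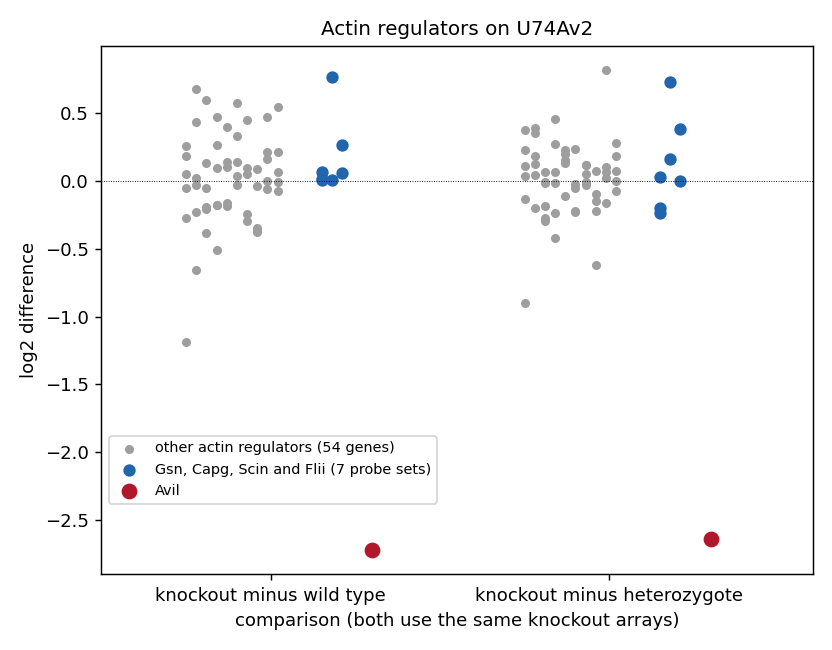
Log2 differences on U74Av2 of Avil, of the 7 tested probe sets of Gsn, Capg, Scin and Flii and of 54 other actin regulators (1 probe set per gene), for knockout minus wild type and knockout minus heterozygote; horizontal spread within a comparison has no meaning. Avil lies at -2.72 and -2.64, and the lowest of the other actin regulators, Ablim1, at -1.18 and -0.90.

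The genes whose signal followed that of Avil most closely over the 6 U74Av2 arrays were found by the root mean square difference between log2 values, each probe set centred on its own mean. The 8 nearest were Eepd1 (0.189 log2 units), the homeobox factor Hmx1 (0.244), the G-protein signalling regulator Rgs10 (0.266, from a family-type probe set), the zinc-finger protein Bnc1 (0.287), the potassium channel Kcna1 (0.310), the neuropeptide Y receptor Npy1r (0.321), the Ras regulator Rasa4 (0.332) and the neuropeptide Adcyap1 (0.351). Their Pearson correlations with Avil over these 6 arrays, which share libraries and the 2-level pattern of genotypes, were 0.968 to 0.997. All 8 had lower signals in both knockout arrays than in the other 4, as a profile near that of Avil requires. Eepd1, for example, had signals of 12.7 and 18.2 in knockout arrays, 291 and 300 in heterozygote arrays and 262 and 370 in wild-type arrays. Bnc1 was at 80.2 and 88.5 in knockout arrays, 426 and 589 in heterozygote arrays and 450 and 796 in wild-type arrays. Ranked by Pearson correlation instead, 4 of the 8 stayed among the first 8. Olfm1, Ddx27, Fgf18 and Dmtn took the other places, with smaller differences from wild type of -1.67, -0.57, -1.19 and -0.93. No other member of the gelsolin family was among either set, as the relatives' differences of 0.00 to 0.77 between knockout and wild type already require. The start windows of 7 of the 8 nearest genes, 8 windows in all, held no match to ATNANTNAT. TAAT matched in the windows of Rasa4 and Adcyap1 and of no other of the 7.

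**Figure D4:**
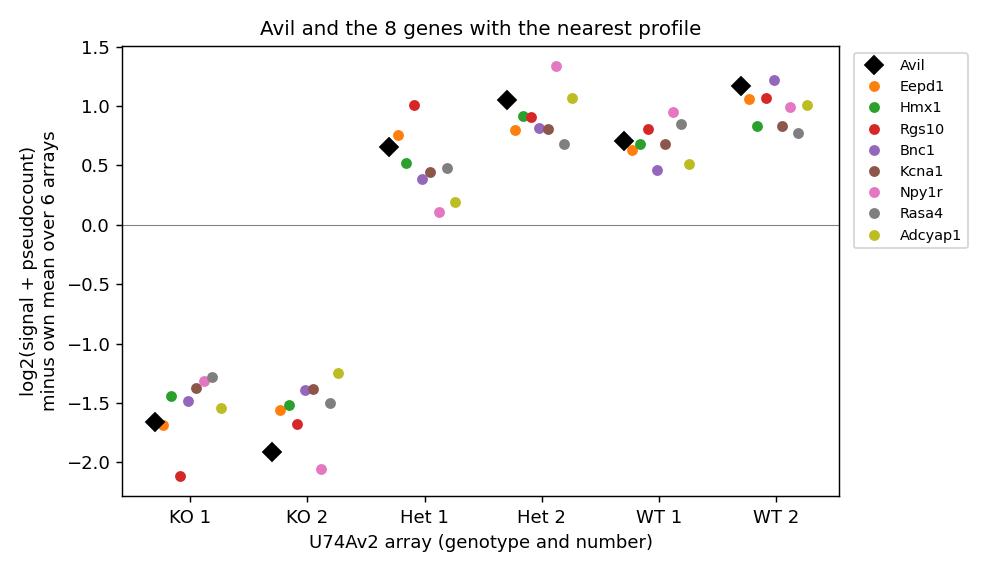
Log2(signal + pseudocount) minus each probe set's own mean over 6 arrays, for Avil (black diamonds) and the 8 genes with the nearest profile (circles), on each U74Av2 array; horizontal spread within an array has no meaning. All 9 genes lie below 0 on both knockout arrays (KO) and above 0 on the heterozygote (Het) and wild-type (WT) arrays.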

How the data were processed

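RNA of pooled trigeminal ganglia was measured on 6 U74Av2 and 5 U74Bv2 arrays. The deposited values are microarray intensities, 1 linear signal per probe set, made by the authors by means of MAS5 (named in the submitters' processing notes). The version and scaling target are not stated in the labels, and detection calls were not used. Signals were not rescaled. Gene symbols came from the platform annotation, updated through Entrez identifiers with a RefSeq table of GRCm38.p6 (0 symbols changed). Promoter windows came from RefSeq on the same build.

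limma 3.58.1 ran under R 4.3.3, and plots were drawn by matplotlib 3.10.9 under Python 3.11.15. Signals were taken as log2(signal + pseudocount), the pseudocount being 0.1 of the mean 2% trimmed mean (50.03 on U74Av2, 49.8 on U74Bv2). Probe sets at or below the 40th percentile of mean log2 value were left out, which kept 7453 and 7446. Genotype was the factor of a limma fit per array type, with an intensity-trended eBayes, Benjamini-Hochberg adjustment over all tested probe sets and a threshold of 0.05. The lone wild-type U74Bv2 array was assumed to vary like the others. The script was tested on simulated data. The number of arrays limits the precision.

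All probe sets of the 6 genes were named, with Pou4f1, the 8 genes nearest to Avil, and from the actin list called members or otherwise the 3 brightest. Further list members were named after their values were seen, as said where they occur. A list was taken with 1 probe set per gene, the brightest. Members and lists were chosen with earlier results of these data known. Differences of uncalled probe sets are given as values and are not calls of a change. Marker lists of endothelium, epithelium and skeletal muscle had 0 called members on U74Av2 in knockout against wild type, with medians of -0.02, 0.06 and -0.11, and the glia, connective tissue and macrophage lists also had 0 called, with medians of 0.18, 0.35 and 0.03 (limma).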

Additional observations from a re-analysis of the deposited data

How the results depend on the processing

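The fall of Avil was called in both knockout comparisons with other pseudocounts (0.02 and 0.2 of the trimmed mean), other filters, no intensity trend, quantile normalization and the replicate number as a block, at -2.92 to -2.51 against wild type and -2.84 to -2.44 against heterozygote. Leaving out 1 array gave -2.95 to -2.49 and -2.84 to -2.44, and the number of members called was 0 to 1 in each comparison. The labels give the numbers 1 and 2 to arrays of each genotype. On U74Av2 the difference of number 1 minus number 2 correlated between genotypes at 0.533 to 0.619 over probe sets, and no label says what the numbers mean. With the replicate block the adjusted p of Avil was 0.00142 against wild type and 0.00187 against heterozygote, and no other member was called. All probe sets called on U74Av2 numbered 19 against wild type and 14 against heterozygote, 130 and 129 with the block, 11 and 8 with the filter at the 60th percentile, and 0 to 15 and 0 to 11 leaving out 1 array. The change of Avil minus that of a tested relative stayed negative under the alternatives run, at -3.87 to -2.52 against wild type, and at -3.72 to -1.85 leaving out 1 array. The 7 tested probe sets of the relatives were uncalled under every alternative that fitted them. The filter at the 60th percentile left out Capg 160106_at, Capg 162461_at and Scin 103715_at, and Vil1, Capg 161969_f_at and Scin 161977_r_at were uncalled in the fit without a filter. The 95% interval of Capg 160106_at against wild type ran from 0.06 to 1.47. Without detection calls, the signals of Vil1 and of the other probe sets below the filter cannot be told from background. On U74Bv2, with alternatives chosen after seeing the data, Ablim1 was also called against wild type with the block (-1.21, adjusted p = 0.0127), with the filter at the 60th percentile and without knockout array 1, heterozygote array 1 or heterozygote array 2 (adjusted p = 0.00202, 0.0112 and 0.0292), and Pou4f1 was not called without the filter (adjusted p = 0.111 against wild type and 0.0649 against heterozygote) or, against wild type, without the trend (0.0991).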

Other observations

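Besides villin and advillin, a few other actin-binding proteins carry a villin-type headpiece, and their values were looked up after those of Avil and of the actin list had been seen. Dmtn, also among the 8 genes with the highest Pearson correlation with Avil, encodes dematin, an actin-bundling protein first known from red blood cells. Its signals on U74Av2 (103600_at) were 541 and 505 in knockout arrays, 1081 and 1186 in heterozygote arrays and 1020 and 1057 in wild-type arrays. Both knockout arrays were below the other 4, and the differences of -0.93 ± 0.20 (SE) against wild type and -1.05 ± 0.20 against heterozygote did not pass the test (limma adjusted p = 0.256 and 0.165).

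Ablim1 was also measured on U74Av2 (103574_at), at 279 and 299 in knockout arrays, 387 and 865 in heterozygote arrays and 625 and 828 in wild-type arrays. Its difference between knockout and wild type there was -1.18 ± 0.36 (limma adjusted p = 0.641). The supervillin gene Svil (104360_at) had signals of 4240 and 3577 in knockout arrays, 3394 and 2357 in heterozygote arrays and 3260 and 2391 in wild-type arrays, a difference of 0.47 ± 0.27 against wild type that did not pass (limma adjusted p = 1.00). The Ablim3 probe sets on U74Bv2 were not called either, at 0.56 ± 0.28 for 112372_at and -0.41 ± 0.22 for 162919_at against wild type (limma adjusted p = 0.527 and 0.574).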
